A study of Mus musculus with 2 samples.

Results

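The integrated stress response genes described here are 10 genes chosen by name, Atf4, Atf3, Ddit3, Trib3, Chac1, Nupr1, Asns, Psat1, Phgdh and Cebpb, out of 41709 entries in the deposited tables. All 10 were matched to an NCBI gene number. The material was polyadenylated RNA of whole C57BL/6 embryonic lung at E14.5, a stage of active branching. The wild-type control and the lungs with the genotype label Prmt5 knockdown gave 1 library apiece, and every library pooled 7 lungs. Shh and Prmt5 both stand in the second library's title. Neither the means of the alteration nor the targeted cells are stated. Prmt5, which encodes a symmetric arginine methyltransferase, went from 2704 control reads to 2127 (1.35-fold lower), which does not pass the size rule defined below. Shh went from 1124 to 109, which passes it.

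The integrated stress response is a translational switch. Kinases that sense amino acid shortage, unfolded protein in the endoplasmic reticulum, lack of heme or double-stranded RNA phosphorylate the initiation factor eIF2alpha, which slows most protein synthesis and favours translation of ATF4. ATF4, a bZIP transcription factor, pairs with C/EBP proteins and activates genes for amino acid synthesis and uptake, for redox balance and, under lasting stress, for cell death. Because ATF4 is set largely by translation, Atf4 mRNA is only a partial readout, and its target genes are usually read beside it.

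ATF4 and C/EBP dimers recognise a composite element whose core was searched here as TGATGNAA, on both strands (the reverse complement is TTNCATCA). The search covered RefSeq windows of GRCm38.p6, the assembly behind mm10, from 250 bases before to 50 bases after each annotated start. Windows were found for all 10 members, and 5 of them held a match, 1 each in Atf3, Chac1, Trib3, Asns and Nupr1. Of all 27025 genes with a window, 4.51% held at least 1 match. The members were chosen by name as genes of the response that ATF4 drives, so this share is no neutral comparison for them. The 5 sites are printed because the 5 members that hold them had the highest ratio estimates with the main scaling, an order that did not hold in every setting. That reason rests on the ratios themselves, so the sites lend the ratios no support, and Chac1 among them had few reads. Each line gives 30 bases on the gene's own strand, 5′ to 3′, with the match in capitals.
Asns: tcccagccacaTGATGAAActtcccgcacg
Atf3: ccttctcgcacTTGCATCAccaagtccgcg
Nupr1: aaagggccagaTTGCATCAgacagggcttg
Chac1: cttccctgccgTTGCATCActcctgccagg
Trib3: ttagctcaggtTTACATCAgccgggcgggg
The printed Asns bases lie at chr6:7693214-7693243 on the minus strand, with the match 23 to 16 bases before the start. The Atf3 bases lie at chr1:191183425-191183454 on the minus strand and the Nupr1 bases at chr7:126625562-126625591 on the minus strand, each with the match 110 to 103 bases before the start. The Chac1 bases lie at chr2:119351038-119351067 on the plus strand, with the match 193 to 186 bases before the start. The Trib3 bases lie at chr2:152344028-152344057 on the minus strand, with the match at positions 15 to 22, where the start is position 1. In Asns the element reads forward, and in the other 4 it reads in reverse. No match was found in the windows of Atf4, Ddit3, Psat1, Phgdh and Cebpb, which says only that these letters are not in those windows. A match is a description of sequence and not evidence of binding.

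Total counts were 22581490 (control) and 25829281 (knockdown). Ratios below are knockdown over control, from counts divided by library sizes that were scaled by the trimmed mean of M values (TMM). Each carries a 95% interval of counting error. A gene was called measured with at least 50 reads in at least 1 library, and it passed the size rule when its ratio was at least 1.5, or the inverse, with an interval that excluded 1. Since each genotype has 1 library, there is no replicate spread, so no p-value is given and no difference has a replicate check. Counting intervals cover the reading of these pools only. The knockdown library stood apart in tissue markers, with 11 of 11 liver and 11 of 11 heart muscle markers higher and 9 of 12 lung epithelium markers lower past this rule. Some of the liver and heart markers reached the minimum only in the knockdown library, so they could not be called lower. The part of these tissues in the members' ratios was not tested. In whole-lung RNA, fewer cells of a type and less RNA per cell cannot be told apart.

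Of the 10 members, 9 were measured, and Chac1 was below the minimum. Asns, Atf3, Nupr1 and Trib3 were higher past the rule, Cebpb was lower past it, and Atf4, Ddit3, Psat1 and Phgdh did not pass. Across all 14569 measured genes, 20.7% were higher and 12.3% lower past the same rule, 33.0% in either direction. The members' shares were 44.4% higher and 11.1% lower, so the share of lower members is near the background, and a difference of 1 gene moves either share by a large step. The median log2 ratio of the measured members was 0.54, beside -0.01 for all measured genes. Trib3 reached the minimum only in the knockdown library. Of all genes past the rule 62.7% were higher, or 52.3% when counts were scaled to library totals, a choice with which the median log2 ratio over all measured genes shifted by -0.11.

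**Figure D1:**
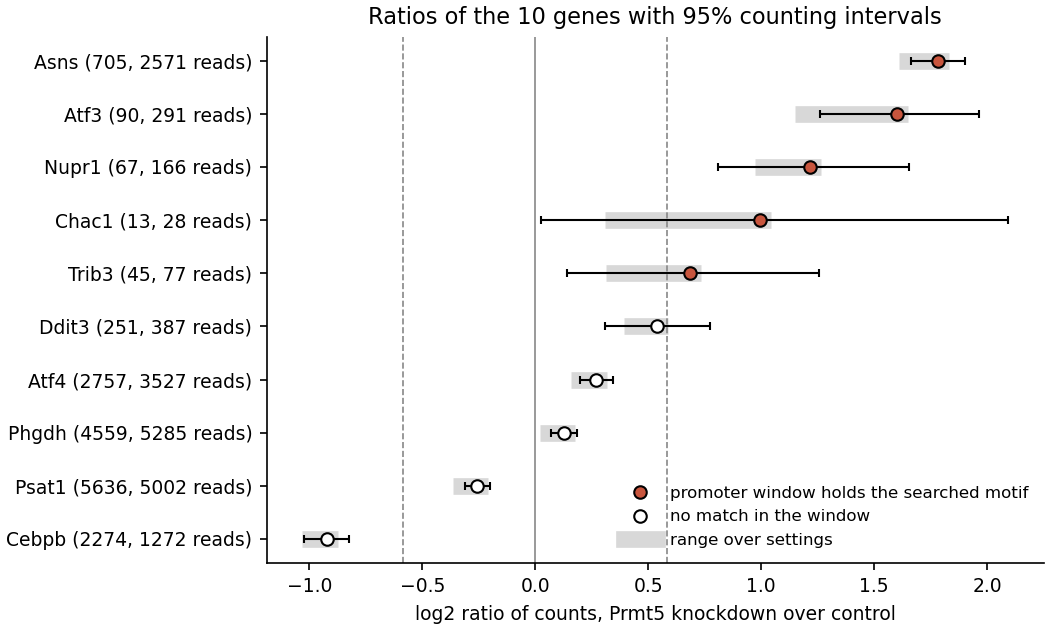
Log2 ratio of counts, Prmt5 knockdown over control, for each of the 10 genes with its reads in both libraries. Points are the ratio with TMM scaling, bars the 95% counting interval, grey bands the range over all settings tried and dashed lines a ratio of 1.5 or its inverse. The 5 genes with a motif match (filled) run from 0.68 to 1.78 and the 5 without (open) from -0.92 to 0.54, with overlapping intervals for Ddit3, Trib3 and Chac1. With the deposited FPKM and a pseudocount of 1, Ddit3 (0.39) stood above Trib3 (0.32) and Chac1 (0.31).

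Atf4 (NCBI gene 11911, chromosome 15, 80255184 to 80257545), the central transcription factor of the response, had 2757 control and 3527 knockdown reads. Its log2 ratio was 0.27 (0.20 to 0.34), 1.21-fold higher, which does not pass the rule. The transcript was abundant in both libraries. Its deposited FPKM, fragments scaled to gene length and library total, was 76.9 and 86.0, above 92.8% and 93.7% of measured genes.

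Atf3 (NCBI gene 11910, chromosome 1, 191170296 to 191183333), a stress-induced bZIP factor that also behaves as an immediate early gene, had 90 and 291 reads. It was 3.04-fold higher in the knockdown library (log2 1.60, 1.26 to 1.97). Ddit3 (NCBI gene 13198, chromosome 10, 127290793 to 127296291) encodes CHOP, the bZIP factor tied to cell death under lasting stress. It had 251 and 387 reads, a log2 ratio of 0.54 (0.31 to 0.78), just short of the rule's 0.585. Its annotated ends overlap Mbd6 by 77 bp and Mars1 by 71 bp, and without a stated strand setting the reads there are uncertain.

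Cebpb (NCBI gene 12608, chromosome 2, 167688915 to 167690432), a C/EBP factor and dimer partner of ATF4, was the only measured member lower past the rule. It had 2274 control and 1272 knockdown reads, 1.89-fold lower (log2 -0.92, -1.02 to -0.82). Only 5.73% of measured genes had a lower ratio. Cebpb was among the more abundant members in the control, and its counting interval is narrow.

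Nupr1 (NCBI gene 56312, chromosome 7, 126623246 to 126625470) encodes a small stress-inducible nuclear protein. It had 67 and 166 reads and was 2.33-fold higher in the knockdown library (log2 1.22, 0.81 to 1.66). The gene lies within the predicted gene Gm39087, which had 0 and 1 reads. Trib3 (NCBI gene 228775, chromosome 2, 152337425 to 152344060), a pseudokinase that binds ATF4 and dampens it, had 45 and 77 reads. Its log2 ratio of 0.68 (0.14 to 1.25) is 1.61-fold, just inside the rule, and it was 0.576 under scaling to totals, just outside the threshold of 0.585.

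Chac1 (NCBI gene 69065, chromosome 2, 119351242 to 119354326), an enzyme that breaks down glutathione, had 13 and 28 reads. The log2 ratio of 0.996 has an interval from 0.03 to 2.10, so at this depth its size is hardly defined. These reads show that the transcript was scarce in both pools.

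The amino acid enzymes split. Asns (NCBI gene 27053, chromosome 6, 7675165 to 7693209), asparagine synthetase, had 705 and 2571 reads, the highest ratio of the 10 members at 3.44-fold (log2 1.78, 1.66 to 1.90). Of all measured genes, 91.8% had a lower ratio. Phgdh (NCBI gene 236539, chromosome 3, 98313171 to 98339969), which opens the serine pathway from glycolysis, had 4559 and 5285 reads, a log2 ratio of 0.13 (0.07 to 0.19). Psat1 (NCBI gene 107272, chromosome 19, 15905123 to 15925059), the aminotransferase that acts after Phgdh, had 5636 and 5002 reads, a log2 ratio of -0.26 (-0.31 to -0.20). Neither of these serine genes passed the rule, and their signs differed. RefSeq also lists a Phgdh pseudogene, not analysed here, whose reads could be shared with Phgdh.

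Per length, the members spanned a wide range of levels. In the control, Psat1 (111.7 FPKM) and Phgdh (107.9) stood highest with overlapping counting intervals, followed by Atf4 (76.9), Cebpb (66.3), Asns (15.7), Ddit3 (8.94), Nupr1 (4.74), Atf3 (2.02), Trib3 (0.972) and Chac1 (0.367). In the knockdown library Phgdh stood highest at 109.4 FPKM. Psat1 (86.7) and Atf4 (86.0) came next and overlapped, followed by Asns (49.99), Cebpb (32.4), Ddit3 (12.04), Nupr1 (10.3), Atf3 (5.70), Trib3 (1.45) and Chac1 (0.691). Ddit3 and Nupr1 also overlapped there. The order of the estimates thus changed at 2 places, with Phgdh above Psat1 and Asns above Cebpb in the knockdown library. Because Psat1 and Phgdh overlapped in the control, only the exchange of Asns and Cebpb lay beyond counting error in both libraries. The gene lengths that the deposited FPKM imply ran from 0.249 (Nupr1) to 1.01 (Cebpb) times the union of GENCODE M21 exons, so levels of different genes are comparable only as far as those lengths hold.

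**Figure D2:**
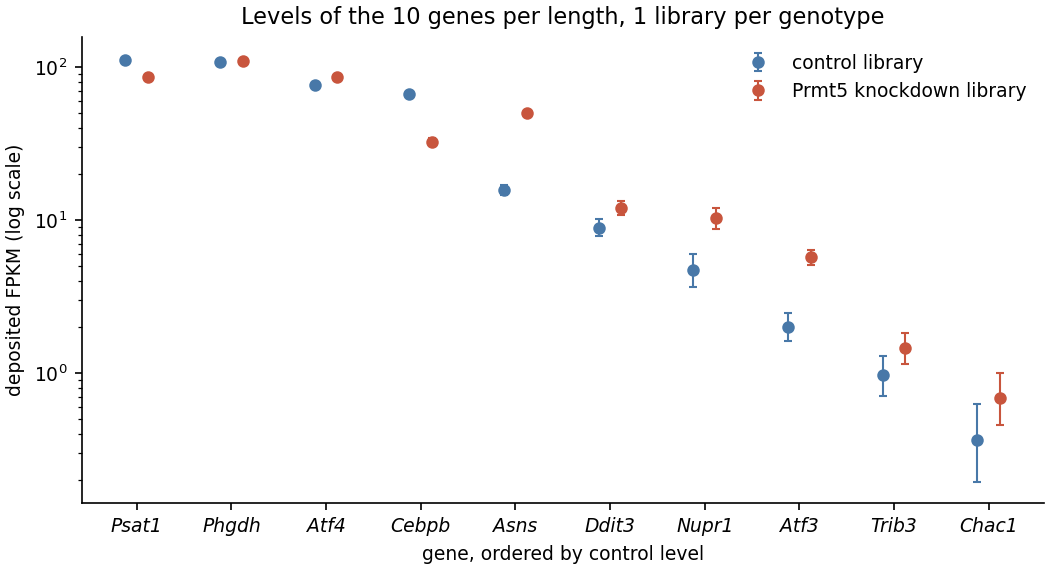
Deposited FPKM (log axis) of the 10 genes in the control and the Prmt5 knockdown library, ordered by control level. Bars are 95% Poisson intervals of the read count. Asns moved from 15.7 to 49.99 and Cebpb from 66.3 to 32.4, so that their order is exchanged.

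Setting each gene against Atf4 within its own library removes the choice of scaling. Per 100 Atf4 reads Asns went from 25.6 to 72.9 reads between control and knockdown, a 2.85-fold difference (2.58 to 3.15). Atf3 went from 3.26 to 8.25 (2.53-fold, 1.98 to 3.26) and Nupr1 from 2.43 to 4.71 (1.94-fold, 1.44 to 2.62). These 3 genes were therefore higher relative to Atf4 beyond counting error. For Trib3 the fold was 1.34 (0.91 to 1.98) and for Chac1 1.68 (0.84 to 3.55), and both intervals include no difference. Ddit3 stood at 1.21-fold (1.02 to 1.43), also higher relative to Atf4 beyond counting error, but by less. Cebpb went from 82.5 to 36.1 reads per 100 Atf4 reads, a ratio of 0.437 (0.401 to 0.476), Psat1 from 204.4 to 141.8 and Phgdh from 165.4 to 149.8. Psat1 reads per 100 Phgdh reads were 123.6 and 94.6.

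**Figure D3:**
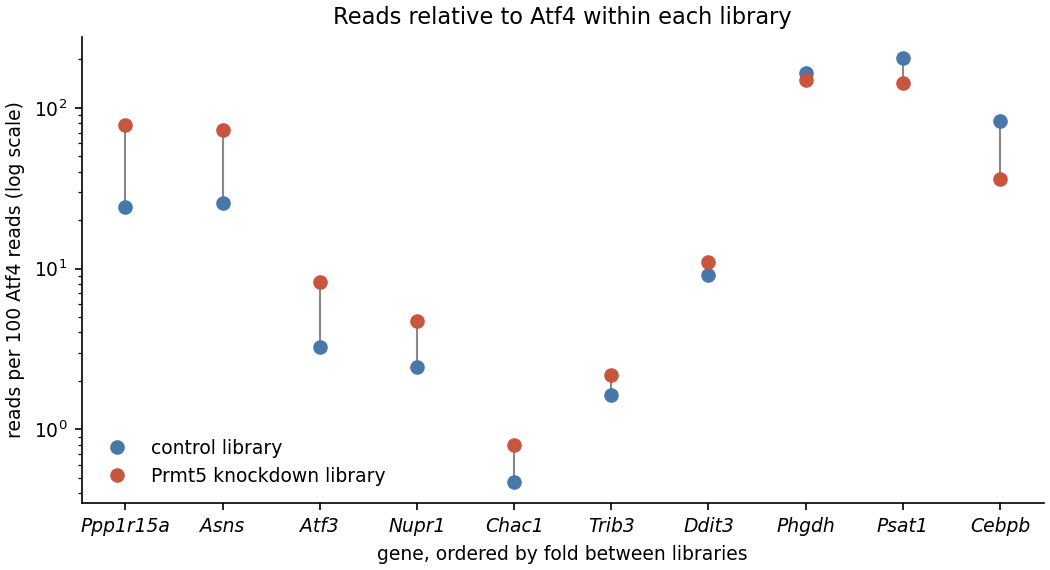
Reads of 9 members and of the phosphatase subunit gene Ppp1r15a per 100 Atf4 reads (log axis), in the control and the Prmt5 knockdown library. Asns goes from 25.6 to 72.9 and Ppp1r15a from 24.0 to 78.5, whereas Cebpb, Psat1 and Phgdh are lower there than in the control.

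The members with a motif match had log2 ratios of 0.68 to 1.78, Chac1 among them with few reads, and those without a match -0.92 to 0.54. The counting intervals of Ddit3 (0.31 to 0.78), Trib3 (0.14 to 1.25) and Chac1 (0.03 to 2.10) overlap. With log2 of the deposited FPKM plus 1, Ddit3 (0.39), which has no match, stood above Trib3 (0.32) and Chac1 (0.31), so the ranges separate for the main estimates only and not in every setting. The division was noticed after the values were known, it rests on 10 genes chosen by name, and it has no test.

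The other genes of the pathway were taken from 12 lists with 120 genes, of which 115 were measured. Of these, 22 (19.1%) were higher and 7 (6.09%) lower past the rule, and 86 did not pass, with a median log2 ratio of 0.09. The share of higher genes is thus near that of all measured genes. The genes past the rule were spread unevenly over the lists.

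Upstream, the eIF2alpha kinases and their co-factors had 1 of 6 higher and none lower (median -0.09). Eif2ak1, which encodes the heme-regulated kinase of red cell precursors, had 1248 and 2663 reads (log2 1.01, 0.91 to 1.11). The library with more Eif2ak1 reads also held more red blood cell transcripts, 2.47% against 0.832% of reads, and their part in this ratio was not tested. None of the 8 eIF2 and eIF2B subunits passed (median 0.14), with Eif2s3x at 0.24 and Eif2s2 at 0.19.

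The phosphatase that reverses eIF2alpha phosphorylation gave opposite extremes. Ppp1r15a, the stress-induced targeting subunit GADD34 and itself an ATF4 target, had 662 and 2767 reads, 3.94-fold higher (log2 1.98, 1.86 to 2.10). Ppp1ca, a catalytic subunit of protein phosphatase 1, had 2010 and 121 reads, 17.5-fold lower (log2 -4.13, -4.42 to -3.87). The other 4 genes of this list did not pass, among them the catalytic subunit genes Ppp1cb (0.35) and Ppp1cc (-0.09), and the list median was 0.10. What underlies the low Ppp1ca count was not tested.

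Among 9 bZIP partners of ATF4, Cebpa (0.76) was higher and Batf3 (-0.82) lower (median -0.03). Cebpa is also a liver factor. Of 10 stress effectors induced through ATF4, 9 were measured, 4 of them higher and 1 lower (median -0.01). The secreted stress cytokine Gdf15 had 10 and 290 reads, 26.1-fold higher (log2 4.71, 3.87 to 5.85), or log2 2.90 with FPKM plus 1. Gdf15 reached the read minimum only in the knockdown library, so it could not be called lower. The growth arrest gene Gadd45a had 95 and 440 reads, 4.35-fold higher. Eif4ebp1 (0.69), a repressor of cap-dependent translation, and the lipoprotein receptor Vldlr (0.60) were higher by less, and under scaling to totals both were below the rule, at 0.577 and 0.49. The angiogenic factor Vegfa was lower (-0.82). Gdf15 and Gadd45a are also known as p53 targets.

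Amino acid supply was covered by 2 lists. Of 13 serine, glycine, proline and one-carbon enzymes 6 were higher and 1 lower (median 0.31). The mitochondrial folate enzyme Aldh1l2 (89 and 415 reads, log2 2.13), the cysteine pathway enzyme Cbs (121 and 492, log2 1.94), the aminotransferase Got1 (687 and 1830, log2 1.33) and Psph (296 and 756, log2 1.27) were the leading 4. Psph completes serine synthesis after Phgdh and Psat1, and its reads per 100 Psat1 reads went from 5.25 to 15.1. The branched-chain aminotransferase Bcat1 was lower (-0.79), or -0.50 and below the rule with FPKM plus 1. The length implied by the FPKM of Bcat1 was 1.42 times its annotated exons, so its count is uncertain. Of 10 amino acid transporters 8 were measured and 2 were higher (median 0.20), the glycine carrier Slc6a9 (391 and 1550 reads, log2 1.90) and the glutamine carrier Slc1a5 (1445 and 3055, log2 0.996).

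The tRNA synthetases, which charge tRNAs with amino acids, gave hardly any call. None of the 12 cytosolic synthetases linked to ATF4 passed the rule, and their log2 ratios ran from -0.33 to 0.35 (median 0.03). Aars had 4882 and 4839 reads and Eprs 4847 and 5122, so depth was ample. Of 8 other cytosolic synthetases only Vars passed, lower at -0.82, or -0.55 and below the rule with FPKM plus 1, with a list median of -0.02. Vars had the fewest reads of this list (359 and 216). The length implied by its FPKM was 1.43 times its annotated exons, so its count is uncertain. Farsb, at 1.49 times its exons, did not pass.

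The chaperone lists held 1 gene past the rule. Of 18 endoplasmic reticulum chaperone and degradation genes only Dnajb9, a co-chaperone of the IRE1 arm, passed, at 0.83 (251 and 475 reads), and the median was 0.01. None of 6 mitochondrial chaperone and protease genes passed, with Hspd1 at 0.41, Hspa9 at 0.32 and a median of 0.26. Immediate early genes, the class that Atf3 also belongs to, had 6 higher and 2 lower of 12 measured (median 0.78). Jund had 181 and 8076 reads (log2 5.39), with an authors' length of 3.45 times its annotated exons, so its count is uncertain. Fosb (14 and 66 reads, log2 2.11) and Fos (1.78) were higher, and Egr3 (-1.51) and Jun (-0.59) lower. Fosb reached the read minimum only in the knockdown library and Egr3 only in the control, so each could be called in 1 direction only. With DESeq2 size factors Jun was below the rule, at -0.56, and with FPKM plus 1 Fosb was, at 0.53.

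**Figure D4:**
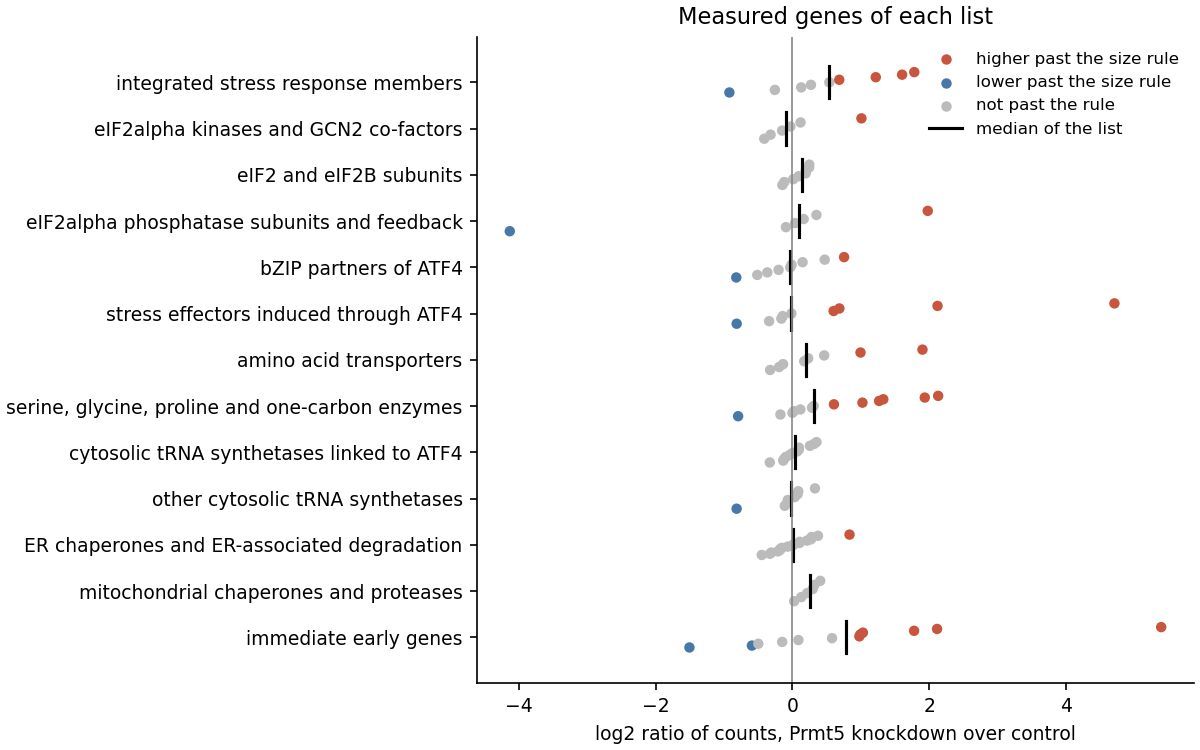
Log2 ratio of every measured gene in the members and the 12 other lists, with the list median as a black line. Colours mark genes past the size rule. Synthetase medians are 0.03 and -0.02, the endoplasmic reticulum and mitochondrial chaperone medians 0.01 and 0.26, and the eIF2 and eIF2B subunit median 0.14. In these lists only Vars (-0.82) and Dnajb9 (0.83) pass the rule. The eIF2alpha phosphatase list runs from -4.13 to 1.98. Higher past the rule are 6 of 13 amino acid enzymes, 4 of 9 stress effectors and 6 of 12 immediate early genes, beside 20.7% of all measured genes. Gdf15 and Fosb, counted among these, reached the read minimum only in the knockdown library.

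The libraries also differed in markers of other tissues. In the knockdown library all measured markers were higher past the rule for liver (11 of 11), heart muscle (11 of 11), skeletal muscle (8 of 8), adrenal cortex (8 of 8), immune cells (10 of 10) and thymus (5 measured of 7). So were 8 of 10 red blood cell, 7 of 8 nerve and 3 of 4 measured pancreas markers, and 9 of 12 lung epithelium markers were lower. Many of the higher markers, all measured thymus markers among them, reached the read minimum only in the knockdown library, so they could not be called lower. The shares of reads given next do not depend on that minimum. Liver markers took 0.00962% of control reads (exact Clopper-Pearson interval 0.00922% to 0.0100%) and 1.17% of knockdown reads (1.167% to 1.175%). Heart muscle markers took 0.0226% and 0.656%, skeletal muscle markers 0.00264% and 0.0865%, and adrenal cortex markers 0.000452% and 0.0220%. Lung epithelium markers took 0.170% (0.168% to 0.172%) and 0.0546% (0.0537% to 0.0555%). Immune, nerve, pancreas and thymus markers took from 4.87e-05% to 0.0368% of reads.

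In the control library 1 of 11 heart markers (Nppb), 3 of 8 adrenal, 3 of 7 thymus and 6 of 11 pancreas markers had 0 reads, and in the knockdown library none of the markers listed did. Asns, Nupr1, Cebpb and the serine enzymes are also expressed outside the lung, liver included.

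**Figure D5:**
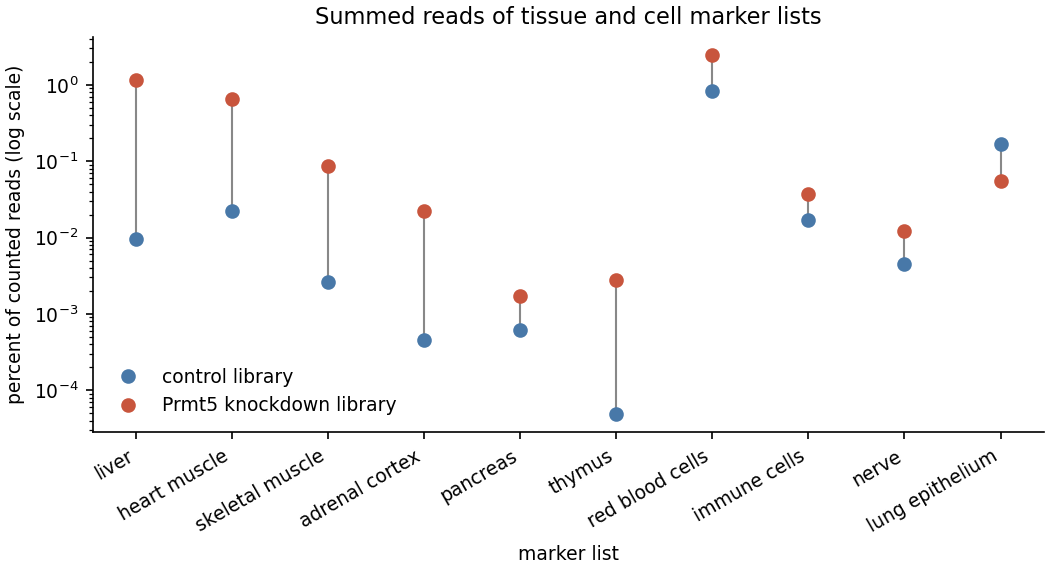
Share of counted reads (percent, log axis) taken by each of the 10 marker lists in the control and the Prmt5 knockdown library. Each list but lung epithelium takes a larger share in the knockdown library, liver from 0.00962% to 1.17%, while lung epithelium goes from 0.170% to 0.0546%.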

How the data were processed

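Polyadenylated RNA of 1 control and 1 Prmt5 knockdown pool was analysed from the raw read counts per gene that the authors deposited. Bowtie2 2.2.3, TopHat2 2.0.12, HTSeq 0.6.1 and build mm10 are named, per the submitters' processing notes. The sources used here do not give the annotation, strand setting or treatment of multi-mapped reads. The deposited FPKM values were the counts over gene length and library total, with whole lengths (within 0.001 bp) in 100% of genes with control reads, and hold no further measurement. Of 41709 entries, 138 carry no NCBI number, and 40269 were matched to a RefSeq symbol of GRCm38.p6.

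Counts were scaled with TMM (edgeR 4.0.16, R 4.3.3; factors 1.04 and 0.963), and 0.5 reads, in proportion to library size, were added before taking ratios. Intervals are 95% Clopper-Pearson intervals of the 2 counts given their sum, computed with scipy 1.17.1. Folds relative to Atf4 carry exact conditional intervals of the odds ratio. All cover counting error only, and PCR copies can make them too narrow. On simulated counts for the 41709 genes of this comparison, the rule recovered 54% of 50 genes changed 1.5-fold, 100% at 2-fold and 98% at 0.5-fold. Those counts held counting error only, and the changed genes had at least 50 expected control reads. Recovery among scarcer genes, or with spread between pools, was not simulated. The named genes are the 10 members and, per pathway list, up to 4 genes past the rule by the interval bound nearest to 1, genes past it against the list median, or, with none past it, the 2 with the most reads. Ppp1cb and Ppp1cc were named after their values were seen, and so were the genes with 0 control reads. Alternatives covered scaling, prior count, the FPKM unit, the read minimum, the ratio and the interval. The members, lists and motif were chosen with earlier results of these data known.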

Additional observations from a re-analysis of the deposited data

How the results depend on the processing

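No member changed sign under the 13 alternatives. Only those of scaling, prior count and the FPKM unit could change a sign, because the others altered the rule and not the log2 ratios. With a ratio of 2 in place of 1.5, 0 members were lower (Cebpb no longer passed), 703 genes of all were lower, and 14 of the other pathway genes were higher and 2 lower. With a minimum of 200 reads 2 members (Asns and Atf3) and 1956 genes of all were higher, since fewer genes were tested. All other counts stayed within 1.5 times. The members' median log2 ratio, 0.54 in the main setting, was lowest at 0.27 with a minimum of 200 reads. It was 0.32 with FPKM plus 1 and highest at 0.61 with a minimum of 10 reads or none. Trib3 lost its call in 6 alternatives, ranging from 0.32 to 0.73 on the log2 scale. Ddit3 passed, at 0.588, when TMM used genes with 50 reads in both libraries, and Chac1 passed with a minimum of 10 reads or none. Asns ranged from 1.61 to 1.83, Atf3 from 1.15 to 1.65, Nupr1 from 0.97 to 1.27 and Cebpb from -1.03 to -0.87. Depth limits Chac1 and Trib3 most. No paired analysis was possible because each genotype has 1 library, and for the same reason no replicate could be left out.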

Other observations

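Beyond the members, the searched element was found in the windows of 293 other measured genes, of which 25.3% were higher and 9.22% lower past the rule. Among 10779 other measured genes whose windows lack it, 20.0% were higher and 11.6% lower. The medians of the log2 ratio were 0.13 and -0.01. These shares describe 2 libraries and were not tested.

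Of the other pathway genes with a window, 12 held a match, and 2 of these (16.7%) were higher, Got1 (1.33) and Vldlr (0.60), whereas none was lower. Of the 77 without a match 15 (19.5%) were higher and 4 lower. The synthetase genes Aars (-0.10), Gars (0.26), Iars (-0.04), Tars (-0.13) and Yars (0.35) held a match and did not pass the rule. The share of higher genes was thus not larger with a match in these lists, but 12 genes are few, and 1 gene moves this share by a large step. Median log2 ratios were 0.18 with a match and 0.08 without. Whether the division by motif seen among the 10 members recurs in these lists was not tested. Genes named in this section were chosen after their values were seen.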
